A study of Mus musculus with 12 samples.

Results

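The genes described here are 32 genes of glucose uptake, glycolysis, lactate handling and the hypoxia-inducible factor (HIF) pathway, among 37583 genes counted by RNA sequencing in mouse myeloid progenitors. They were taken by symbol from a list chosen with earlier results of these data known, and all 32 matched 1 Ensembl identifier each. Clones with a Taz knockout (KO) were set against wild-type (WT) clones. Taz encodes Tafazzin, which remodels cardiolipin, the signature phospholipid of the inner mitochondrial membrane. Both genotypes are granulocyte-monocyte progenitors (GMPs) from C57BL/6 fetal liver at embryonic day 15.5, and both carry a retroviral, estradiol-dependent ER-Hoxb8 that blocks maturation. All were grown in RPMI with stem cell factor at about 50 ng/ml and 0.5 µM estradiol. The oxygen tension of the cultures and the nature of the Taz allele are not given in the sources used here. Each of the 12 samples is 1 single-cell clone, 3G, 3H, 3I, 4J, 4K and 4L in KO and 1A, 1B, 1C, 2D, 2E and 2F in WT. The labels do not explain the number in the clone name. If clones with the same number share an embryo or a parent line, p-values over 12 clones are too small.

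Glycolysis splits glucose into pyruvate in the cytosol, and lactate dehydrogenase turns pyruvate into lactate so that the pathway can run without mitochondrial respiration. The transcription factor HIF-1 is stabilized when its prolyl hydroxylases slow down, chiefly at low oxygen. It induces glucose transporters, most glycolytic enzymes, lactate exporters and a kinase that inhibits pyruvate dehydrogenase. Mature neutrophils are known for a strong reliance on glycolysis.

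Gene counts summed to between 18970252 and 23658158 per KO clone and between 21966954 and 27431544 per WT clone. Taz stood at 2.21 to 4.08 CPM (counts scaled to library size after TMM normalization, as throughout) in KO clones and at 37.1 to 43.9 CPM in WT clones, so every KO clone lay far below every WT clone. Markers of the GMP, such as Mpo, Kit and Cd34, summed to between 12517 and 20525 CPM in KO and to between 13636 and 22963 CPM in WT clones. Within this list Irf8 was low, at 5.38 to 16.5 CPM in KO and 9.95 to 14.5 CPM in WT clones. Elane ran from 2.25 to 147 CPM in KO and from 23.4 to 827 CPM in WT clones. Markers of some other cells were high in every clone. A list for mast cells and basophils, led by Cpa3, summed to 2652 to 5327 CPM in KO and 1515 to 4693 CPM in WT clones. A list for monocytes and macrophages, led by Ccr2, summed to 977 to 1809 CPM in KO and 550 to 1185 CPM in WT clones. No tested gene of these lists was called. Libraries 3G, 2D and 1A stood apart in markers of further cell types. In KO clone 3G, 7 fetal hepatocyte genes led by Alb summed to 165 CPM, against at most 2.04 CPM in the other KO clones and at most 0.842 CPM in WT. In WT clone 2D, 10 genes of maturing neutrophils summed to 1538 CPM, against at most 145 CPM in KO clones and at most 115 CPM in the other WT clones. Of the 7 neutrophil genes tested, 1 was called lower in KO, where 3.94% of all genes tested were. In WT clone 1A, 9 erythroid genes summed to 75.5 CPM, against at most 19.5 CPM in KO clones and at most 15.2 CPM in the other WT clones. Without 1A, Slc16a3 and Eno1 were still called lower (edgeR adjusted p = 0.0335 and 0.0476). Summed levels of 9 lymphoid genes did not overlap between genotypes, at 6.38 to 30.5 CPM in KO and 34.4 to 87.5 CPM in WT clones, and 2 of the 6 tested were called lower. In bulk RNA, fewer cells of a type and less RNA per cell cannot be told apart. The part of these markers and libraries in the results was not tested beyond the values without them.

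In Taz KO clones a few glycolytic enzymes and HIF-inducible genes were lower and 1 phosphofructokinase was higher. Of 2 genes of glucose uptake, 3 hexokinases and 4 members of the HIF machinery, 0 passed the test. Groups this small can hold 0 calls at the share called over all genes, so this does not set them apart. Of 31 members that passed the filter on low counts, 5 were lower in KO (Ldha, Tpi1, Eno1, Slc16a3 and Ankrd37), 1 was higher (Pfkp) and 25 were not called. Over all 11819 genes tested, 7.94% were called, 3.94% lower and 3.99% higher. DESeq2 called 1 member higher and 6 lower, and 13.3% of the genes tested. Calls rest on edgeR's quasi-likelihood test with Benjamini-Hochberg adjustment over all genes and a threshold of 0.05. The median log2 fold change (KO minus WT) was -0.17 over the 31 members and -0.0066 over all genes tested. A total of 15 members had an unadjusted p under 0.05, where 23.7% of all genes did. In 3 members, Ldha, Tpi1 and Ankrd37, every KO clone lay below every WT clone. No member had every KO clone above every WT clone. Over all genes tested the genotypes did not overlap in 5.38%, with KO lower in 2.84% and higher in 2.54%. Since the members were chosen with earlier results known, their shares beside those of all genes are descriptions only.

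**Figure D1:**
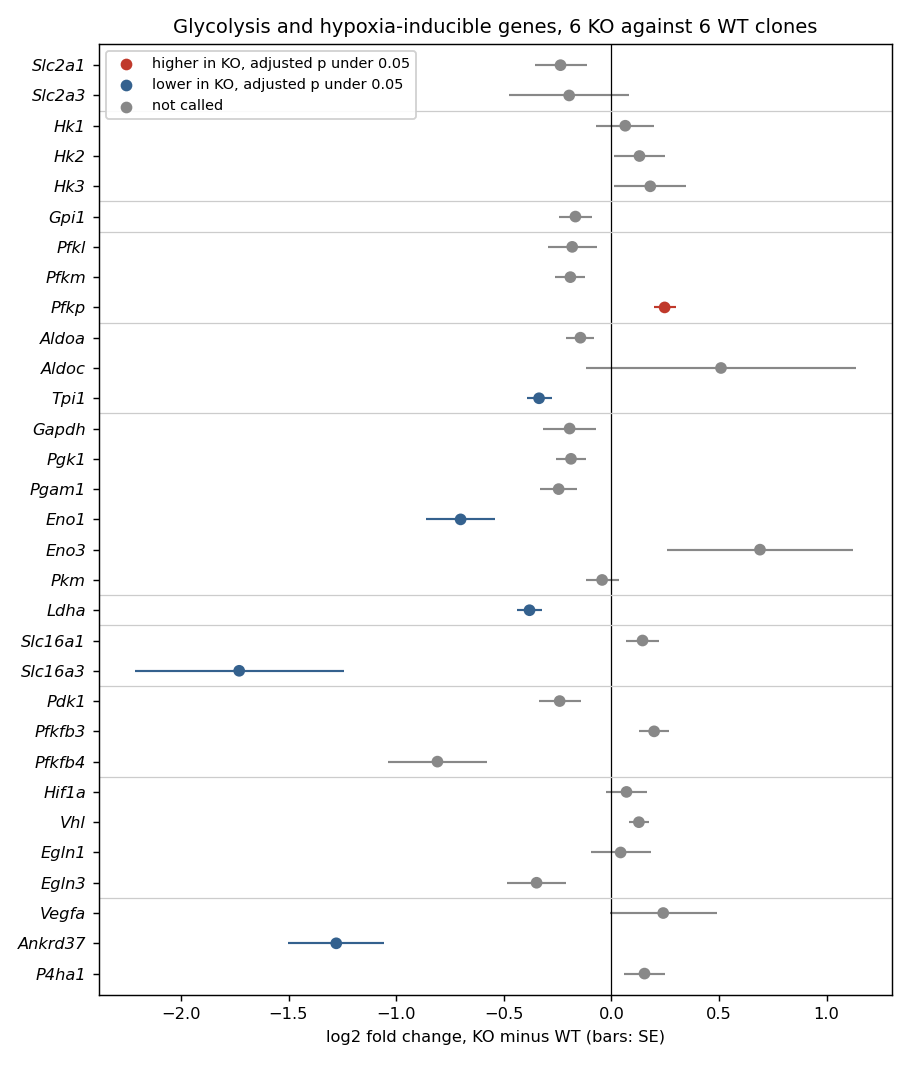
Log2 fold change (KO minus WT, x axis) with its standard error for the 31 tested members, in the order of the pathway from glucose uptake at the top to HIF-inducible genes at the bottom, with lines between roles. Red marks the member called higher in KO, Pfkp at 0.25, blue the 5 called lower, and grey the 25 that were not called.

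Ldha encodes the muscle-type lactate dehydrogenase subunit and is a classical HIF-1 target. Its lowest, median and highest levels were 646, 699 and 762 CPM in KO clones, against 849, 904 and 1033 CPM in WT clones. The genotypes were separated by a gap, with a mean of 707 CPM ± 41.9 in KO and 921 CPM ± 75.8 in WT (SD, n = 6 each). The log2 fold change was -0.38 (SE 0.06, edgeR adjusted p = 0.00300). Ldha kept its call in all 12 fits that left out a single clone, with an adjusted p between 0.00302 and 0.00932, and in each of the 10 other alternatives. Ldhb, the heart-type subunit, had almost no counts. A transcript of Ldhb matched another annotated gene over 76.8% of its length, and reads that aligned more than once were left out. Its level is uncertain to that extent. Ldhb had 24 counts in 3G, the clone with hepatocyte markers, 1 count in 4K and 0 in every other clone. For counting error only, this allows up to 0.109 to 0.137 CPM in the WT clones. Ldha held at least 99.8% of lactate dehydrogenase counts in every clone.

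Tpi1 encodes triosephosphate isomerase, the enzyme that interconverts both products of the split sugar. It lay at 309, 322 and 355 CPM in KO (lowest, median, highest) and at 366, 413 and 464 CPM in WT, with no overlap. Its log2 fold change was -0.34 (SE 0.06, edgeR adjusted p = 0.00589), and the call held without any single clone. With counts summed by clone number, which leaves 2 samples per genotype, the adjusted p was 0.0817 for Tpi1, 0.0973 for Pfkp, 0.0748 for Ankrd37 and 0.193 for Slc16a3, while Ldha and Eno1 kept their calls (0.0377 and 0.0346). Eno1 encodes the widely expressed enolase of the pathway. Its levels were 183, 210.2 and 277 CPM in KO, against 252, 336 and 488 CPM in WT, so that the highest KO clone, 4L, exceeded the lowest WT clone, 2E. It showed the largest fall among the glycolytic enzymes (log2 fold change -0.70, SE 0.16, edgeR adjusted p = 0.0213). WT clones were widely spread, with 2D and 1A at 488 and 417 CPM. The call of Eno1 was lost without 3G or without 3I, with an adjusted p of at most 0.0519, and with 2D and 3G both left out (log2 fold change -0.54, adjusted p = 0.0571). Eno3, the muscle enolase, averaged 4.31 CPM ± 1.93 in KO and 2.67 CPM ± 1.31 in WT (n = 6 each) and was not called (edgeR adjusted p = 0.365).

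Slc16a3 encodes MCT4, a lactate exporter of glycolytic cells that HIF-1 induces. Its levels were 2.00, 3.73 and 8.04 CPM in KO and 4.63, 10.4 and 27.8 CPM in WT. Among WT clones 2F and 2D were high, at 27.8 and 24.2 CPM, and 1A was low, inside the KO range. The log2 fold change of -1.73 (SE 0.49) was the largest of any member, but it passed edgeR's test by a narrow margin (adjusted p = 0.0499). The call was lost without any 1 of 10 clones (all but 1A and 4L), with an adjusted p of up to 0.102, and likewise with RLE or upper quartile scaling. Slc16a1, which encodes MCT1, carried most transcripts of the pair. It averaged 289.6 CPM ± 23.6 in KO and 262 CPM ± 28.4 in WT (log2 fold change 0.14, edgeR adjusted p = 0.271). Slc16a3 thus held 1.51% ± 0.883 of the pair's counts in KO and 5.15% ± 3.06 in WT (n = 6 each).

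Ankrd37, an ankyrin repeat gene known as a strong HIF-1 target, was scarce in all clones. It had 0.679, 0.757 and 0.955 CPM in KO, from 15 to 19 counts, against 1.08, 1.83 and 2.66 CPM in WT, from 25 to 70 counts. The genotypes did not overlap, and clone 2D was the lowest in WT. The log2 fold change was -1.28 (SE 0.22, edgeR adjusted p = 0.00603), with an adjusted p of at most 0.0190 without any single clone. Exons of Ufsp2 and Lrp2bp on the other strand cover 26.4% of its exon bases in GENCODE M21, which may differ from the annotation used for counting. Reads were counted without strand, and ambiguous reads were left out of the gene counts. Ufsp2 averaged 80.5 CPM ± 8.50 in KO and 97.2 CPM ± 9.43 in WT (log2 fold change -0.27, edgeR adjusted p = 0.0617). Whether the overlap removed reads from Ankrd37 or added reads to it was not tested, so its value is uncertain.

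Pfkp was the only member called higher. It encodes the platelet isoform of phosphofructokinase, the committed step of glycolysis. Its levels were 232, 249 and 269 CPM in KO, against 191, 211 and 233 CPM in WT, and the lowest KO clone, 4L, lay just under the highest WT clone, 2F. The log2 fold change was 0.25 (SE 0.05, edgeR adjusted p = 0.0144), and the call held without any single clone. The other isoforms had negative fold changes that were not called. The liver isoform Pfkl averaged 129 CPM ± 11.4 in KO and 146 CPM ± 26.3 in WT (adjusted p = 0.365), and the muscle isoform Pfkm 57.2 CPM ± 5.79 in KO and 65.2 CPM ± 4.85 in WT (adjusted p = 0.120, and 0.0473 without 4K). As a share of phosphofructokinase counts, Pfkp held 54.4% to 61.6% in KO clones and 45.8% to 53.2% in WT clones, ranges that did not overlap. Hk1 held 46.0% ± 3.45 of hexokinase counts in KO and 47.7% ± 4.12 in WT, and Slc2a1 held 45.6% ± 11.2 of the counts of both glucose transporters in KO and 44.7% ± 8.28 in WT (n = 6 each). These shares are descriptions without a test.

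**Figure D2:**
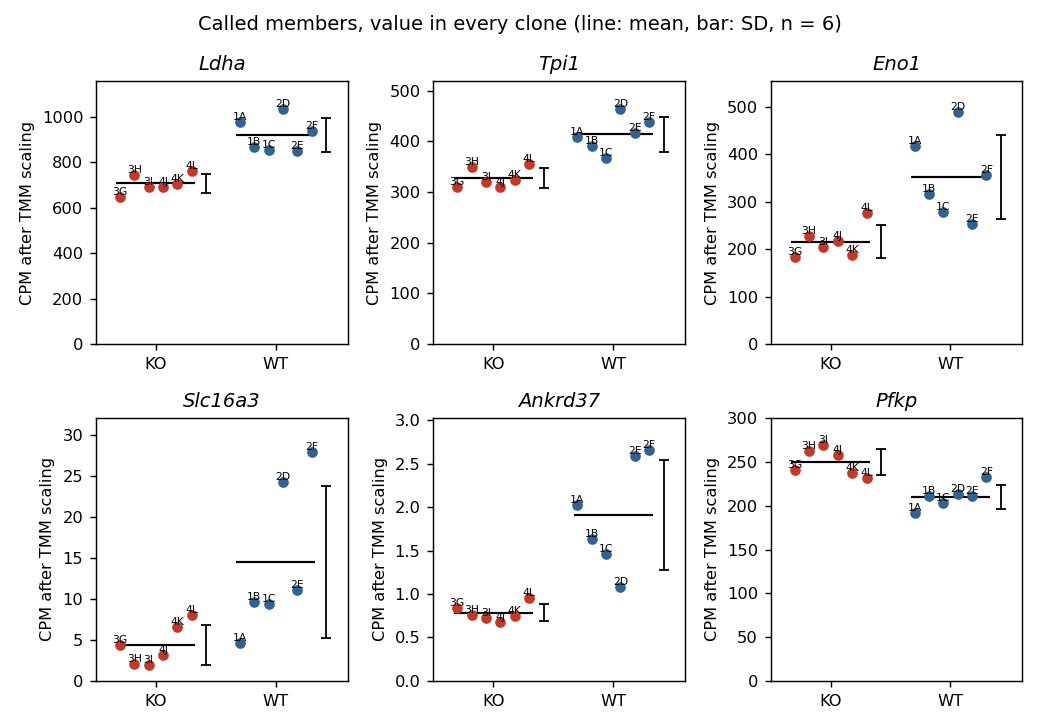
CPM after TMM scaling (y axis, from 0) in each of the 6 KO (left, red) and 6 WT clones (right, blue) for the 6 called members, with the mean as a line and the SD as a bar. Ldha, Tpi1 and Ankrd37 are separated between genotypes, while single clones of Eno1, Slc16a3 and Pfkp overlap.

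No gene of glucose entry passed the test, by edgeR or DESeq2, and 0 had an unadjusted p under 0.05, where 23.7% of all genes tested did. Slc2a1 and Slc2a3 encode the glucose transporters GLUT1 and GLUT3. Slc2a1 lay at 44.5, 50.7 and 57.9 CPM in KO (lowest, median, highest) and at 46.5, 59.6 and 78.7 CPM in WT (edgeR adjusted p = 0.263). Slc2a3 spread over 39.9 to 111 CPM in KO and 47.3 to 95.5 CPM in WT (adjusted p = 0.724), a wider range within a genotype than between the means. The hexokinases trap glucose in the cell by phosphorylation. Hk1 averaged 536 CPM ± 74.9 in KO and 513 CPM ± 104 in WT, Hk2 139.7 CPM ± 12.4 in KO and 128 CPM ± 25.6 in WT, and Hk3 489 CPM ± 66.8 in KO and 432 CPM ± 118 in WT. Their fold changes were small and positive, between 0.06 and 0.18 on the log2 scale (edgeR adjusted p from 0.541 to 0.822, with 0 calls by DESeq2 and 0 at an unadjusted p under 0.05), and that of Hk1 turned negative without 2D (-0.0041).

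Several uncalled enzymes had negative fold changes, with ranges that overlapped between genotypes. Phosphoglycerate kinase, Pgk1, was at 31.8, 35.0 and 36.8 CPM in KO and 35.5, 37.9 and 47.5 CPM in WT (log2 fold change -0.19, edgeR adjusted p = 0.131). The mutase Pgam1 was at 21.2, 23.7 and 28.4 CPM in KO and 26.0, 27.8 and 35.3 CPM in WT (-0.24, adjusted p = 0.106). Phosphoglucose isomerase, Gpi1, stood at a log2 fold change of -0.17 with adjusted p = 0.215, aldolase A, Aldoa, at -0.14 with adjusted p = 0.205, and Gapdh at -0.19 with adjusted p = 0.373. Pyruvate kinase, Pkm, which ends the pathway, averaged 922 CPM ± 73.0 in KO and 949 CPM ± 108 in WT (-0.04, adjusted p = 0.789). The difference for Pkm was well inside the spread of either genotype. Aldoc, the brain aldolase, stayed at or below 2.10 CPM.

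Among the kinases that steer the pathway, none was called by edgeR, though all 3 had an unadjusted p under 0.05, where 23.7% of all genes tested did. Pdk1, which inhibits pyruvate dehydrogenase and is a HIF-1 target, was at 89.2, 107 and 116 CPM in KO and 104, 121 and 158 CPM in WT (log2 fold change -0.24, adjusted p = 0.158). Pfkfb4, which sets the level of the phosphofructokinase activator fructose 2,6-bisphosphate, was at 3.87, 5.08 and 5.44 CPM in KO and 4.32, 8.27 and 14.6 CPM in WT (-0.81, edgeR adjusted p = 0.0533). Only WT clone 2F lay in the KO range of Pfkfb4. Without 2F the gene passed edgeR's test (adjusted p = 0.0152), and DESeq2 called it, alone of the 3, with all clones (adjusted p = 0.0122). Its paralog Pfkfb3 had 178, 188 and 198 CPM in KO and 134, 161 and 184 CPM in WT (0.20, adjusted p = 0.104).

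Of the 4 members of the HIF pathway, 0 were called by edgeR or by DESeq2. An unadjusted p under 0.05 was found for 2, Vhl and Egln3, and for 23.7% of all genes tested. Hif1a, the oxygen-regulated subunit, averaged 149 CPM ± 15.6 in KO and 142 CPM ± 19.2 in WT (log2 fold change 0.07, edgeR adjusted p = 0.714). Vhl, the ubiquitin ligase subunit that marks HIF for destruction, was at 28.6 CPM ± 1.32 in KO and 26.2 CPM ± 1.29 in WT (0.13, adjusted p = 0.122). The prolyl hydroxylase gene Egln1 averaged 134 CPM ± 21.7 in KO and 129.8 CPM ± 25.0 in WT (0.04, adjusted p = 0.887). Egln3, a prolyl hydroxylase that HIF-1 itself induces, was at 106, 135 and 177 CPM in KO and 139, 184 and 203 CPM in WT (-0.35, adjusted p = 0.143). HIF regulation acts chiefly on protein, which was not measured. Vegfa, the angiogenic growth factor, had 34.5, 47.2 and 53.3 CPM in KO and 20.2, 31.9 and 67.4 CPM in WT (0.24, adjusted p = 0.606). P4ha1, a collagen prolyl hydroxylase subunit, had 92.5, 105 and 111 CPM in KO and 79.4, 86.7 and 112 CPM in WT (0.15, adjusted p = 0.359).

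**Figure D3:**
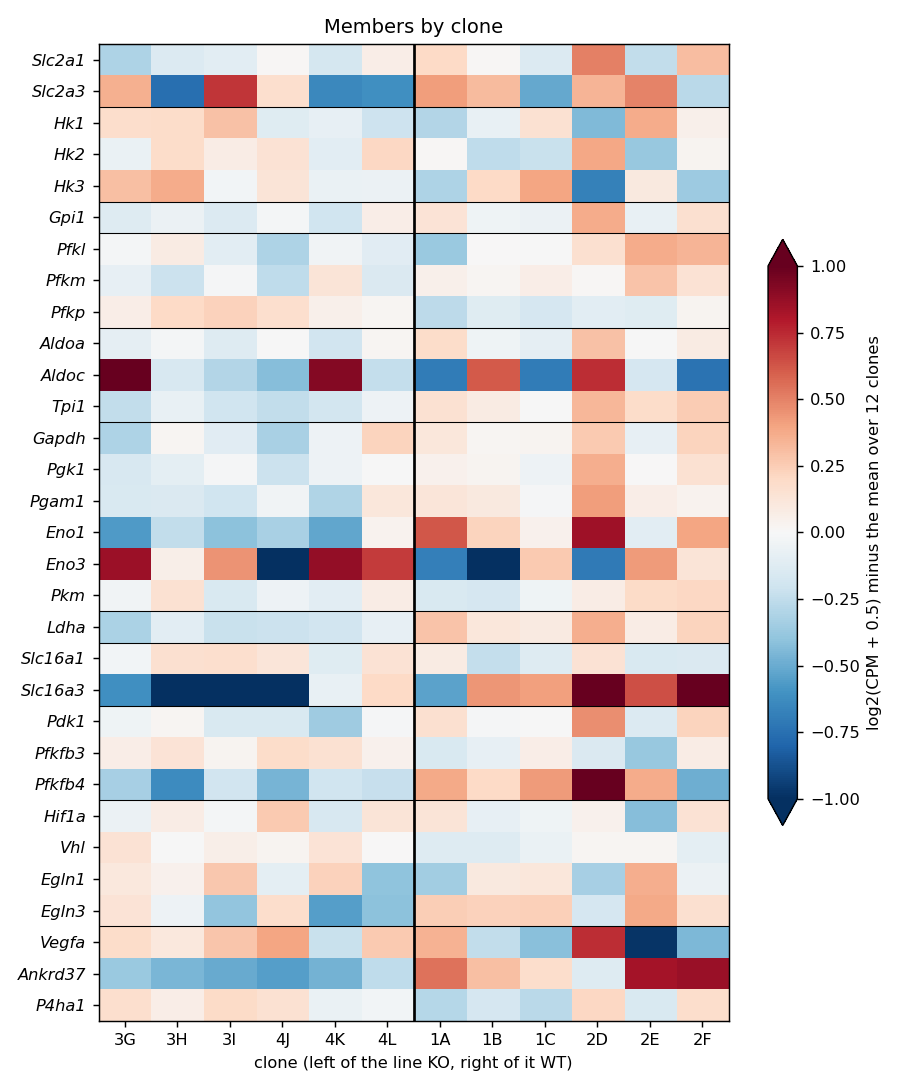
Each cell shows log2(CPM + 0.5) of a member minus its mean over all 12 clones, red above and blue below, with KO clones left and WT clones right of the line and colours capped at 1. Ankrd37 is blue in all KO clones, Slc16a3, Aldoc and Eno3 vary widely within a genotype, and the WT columns 2D and 2E have opposite colours for genes such as Slc2a1, Hk2 and Vegfa.

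Clones of 1 genotype differed among themselves. Clone 2D was the highest WT clone in 17 of 31 members, where it was the highest in 28.7% of all genes tested. These included Slc2a1, Hk2, Gpi1, Tpi1, Eno1, Ldha, Pdk1 and Vegfa, and 2D was also the lowest in Hk1, Hk3, Pfkm, Egln3 and Ankrd37. Clone 2E was the lowest WT clone in 10 members, against 20.5% of all genes, among them Slc2a1, Hk2, Gpi1, Eno1, Ldha, Pdk1, Hif1a and Vegfa. In KO, 4L was the highest clone in 12 members, against 18.1% of all genes, and 4K the lowest in 11, against 22.4%. The SD of log2(CPM + 0.5) was larger in WT than in KO in 25 of 31 members, against 66.2% of all genes tested, with medians of 0.14 in KO and 0.21 in WT. Between clone numbers within a genotype, edgeR called 0 of 31 members and 0% of all genes, both for 2 against 1 in WT and for 4 against 3 in KO. An unadjusted p under 0.05 was found for 5 of 31 members in WT, against 3.52% of all genes, and for 0 in KO, against 2.06% of all genes. The 5 were Pfkl, Pkm, P4ha1 and the called members Tpi1 and Slc16a3. From number 1 to 2 in WT the log2 fold change was 0.18 (SE 0.07) for Tpi1 and 1.42 (SE 0.49) for Slc16a3. For Tpi1, KO number 3 lay at -0.25 against WT number 1 and at -0.43 against WT number 2. In all 4 pairs of a KO and a WT clone number, 0.0592% of all genes were called lower each time and 0.144% higher each time, with 0 members among them.

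Per kilobase of merged exon, Aldoa, Ldha and Pkm were the most abundant members in both genotypes. Aldoa reached 302 CPM per kb ± 16.8 in KO and 334 ± 34.2 in WT, and Ldha 214 ± 12.7 in KO and 278 ± 22.9 in WT (n = 6 each). Hk3, the myeloid hexokinase, led its family per length at 133 CPM per kb ± 18.1 in KO and 117 ± 32.1 in WT, above Hk1 at 62.9 ± 8.78 in KO and 60.1 ± 12.2 in WT and Hk2 at 23.4 ± 2.08 in KO and 21.4 ± 4.29 in WT. By this measure Pfkp stood at 18.6 CPM per kb ± 1.14 in KO and 15.7 ± 1.02 in WT and Pfkl at 19.3 ± 1.71 in KO and 21.9 ± 3.94 in WT. Merged exons of Pfkp span 13401 bases, against 4145 in its longest protein-coding transcript. These lengths are 6675 and 3730 bases for Pfkl, 8532 and 4278 for Hk1, and 3682 and 3219 for Hk3. Comparisons within a family thus depend on the length used, and levels per transcript length were not computed. Gapdh, which catalyses the step between Tpi1 and Pgk1 and is among the most abundant transcripts of most cells, was counted at only 1.15 CPM per kb ± 0.184 in KO and 1.32 ± 0.130 in WT.

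These levels also depend on how reads were assigned. Reads with more than 1 alignment, 44.04% ± 0.542 of records in KO and 43.2% ± 0.381 in WT (SD, n = 6 each), were left out of the gene counts. A transcript of Gapdh matched transcripts of 81 other annotated genes over 88.0% of its length, at 95% identity or more over at least 100 bases. The matched share was 85.6% for Eno1, 76.8% for Ldhb, 68.8% for Pgk1, 65.5% for Pkm, 55.3% for Gpi1, 55.04% for Ldha and 43.1% for Pgam1. It was 19.3% for Tpi1, 18.05% for Pfkp, 11.1% for Ankrd37 and 0% for Slc16a3 and Aldoa. Matches to genes that overlap a member in the genome were not removed. Exons of Pitrm1 on the other strand cover 748 exon bases of Pfkp, so its share may come from that overlap. Pitrm1 averaged 305 CPM ± 34.1 in KO and 304 CPM ± 38.5 in WT (edgeR adjusted p = 0.978). The levels and folds of members with a large matched share, such as Gapdh, Eno1, Pgk1, Pkm, Gpi1, Ldha and Pgam1, rest on reads that aligned to 1 place and are uncertain to that extent. The same holds for the level of Ldhb. Eno1b, a near-identical copy of Eno1, had at most 3 counts in KO and 5 in WT clones. Reads that align to both copies were left out, so these counts do not show how far Eno1b is expressed.

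**Figure D4:**
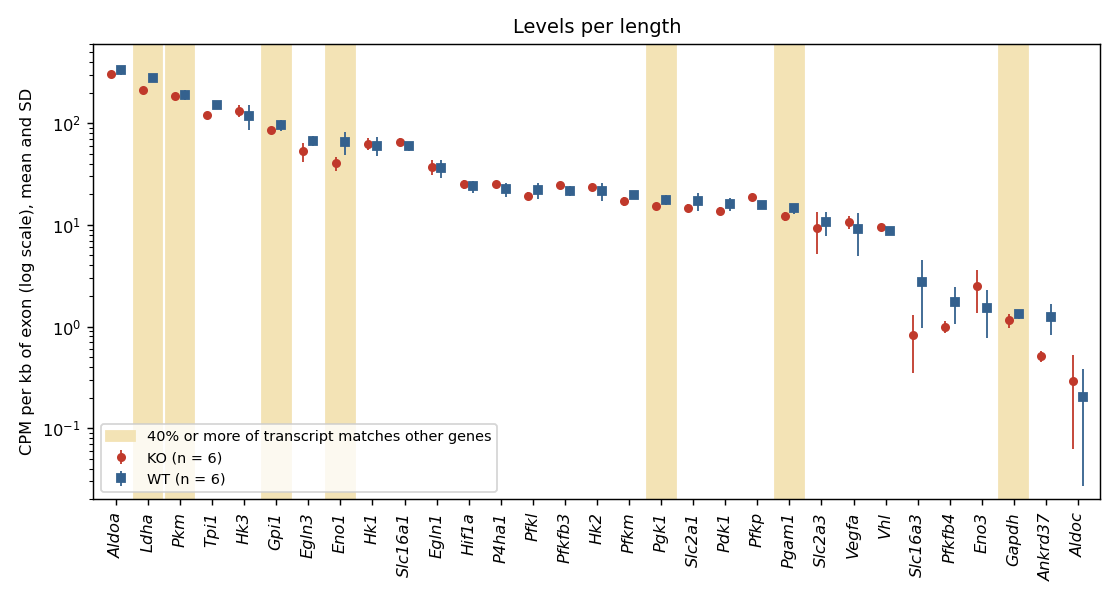
Mean CPM per kb of exon with its SD (log y axis) in 6 KO (red) and 6 WT clones (blue) for 31 members (Ldhb, at 0 in all WT clones, is left out), ordered by WT level. Shaded genes have 40% or more of a transcript matched by other annotated genes, and Gapdh at 1.32 CPM per kb in WT lies far right among them.

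HIF-1 binds DNA at a short core, ACGTG or GCGTG, and ACGTG also lies within the E-box CACGTG that MYC and other factors bind. Cores were counted on both strands in the RefSeq promoter window (GRCm38.p6) of each gene, from 250 bases before to 50 after the most upstream start, for the 31 members with a window. A core was present in 24 of 31 members, or 77.4%, and in 43.8% of 27025 genes. At least 3 cores were found in 10 members, and in 9.15% of all genes. This background holds every gene with a window, expressed in these cells or not, and the share among the genes tested was not computed. Some members were also listed for being HIF-inducible, so the difference is a description only. Among called members the numbers were 7 for Ldha, 4 for Ankrd37, 2 for Slc16a3, 2 for Eno1 and 0 for Tpi1, all lower in KO, and 4 for Pfkp, the member that was higher. Each E-box counts as 2 cores since both strands match, and Ldha has 2 E-boxes. The 250 bases before the start are printed 5′ to 3′ on the gene's strand for 5 of the 6 called members, to show windows with many cores (Ldha, Ankrd37), with cores close to the start (Slc16a3), of the member that rose (Pfkp) and with no core (Tpi1), and capitals mark the cores. They are chr7:46845554-46845803 (+) for Ldha, chr8:45999851-46000100 (-) for Ankrd37, chr11:120948817-120949066 (+) for Slc16a3, chr13:6648772-6649021 (-) for Pfkp and chr6:124814159-124814408 (-) for Tpi1.
Ldha: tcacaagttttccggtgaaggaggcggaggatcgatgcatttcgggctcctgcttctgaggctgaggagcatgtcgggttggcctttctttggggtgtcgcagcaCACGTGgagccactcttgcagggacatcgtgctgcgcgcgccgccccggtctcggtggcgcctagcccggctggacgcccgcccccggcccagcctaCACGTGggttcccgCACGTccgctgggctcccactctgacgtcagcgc
Ankrd37: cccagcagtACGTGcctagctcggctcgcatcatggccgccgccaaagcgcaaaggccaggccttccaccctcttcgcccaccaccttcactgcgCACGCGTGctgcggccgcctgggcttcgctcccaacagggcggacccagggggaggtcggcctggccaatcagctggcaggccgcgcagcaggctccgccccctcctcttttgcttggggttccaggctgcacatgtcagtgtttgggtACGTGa
Slc16a3: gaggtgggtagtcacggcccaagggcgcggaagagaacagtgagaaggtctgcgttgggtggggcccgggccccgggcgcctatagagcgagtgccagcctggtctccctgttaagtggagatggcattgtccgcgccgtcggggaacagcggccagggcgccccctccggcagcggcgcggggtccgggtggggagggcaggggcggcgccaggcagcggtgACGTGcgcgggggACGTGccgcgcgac
Pfkp: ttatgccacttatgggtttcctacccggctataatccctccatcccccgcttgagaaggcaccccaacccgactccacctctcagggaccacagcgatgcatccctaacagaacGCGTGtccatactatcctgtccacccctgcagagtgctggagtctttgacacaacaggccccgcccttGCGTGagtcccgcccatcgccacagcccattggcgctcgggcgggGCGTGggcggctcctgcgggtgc
Tpi1: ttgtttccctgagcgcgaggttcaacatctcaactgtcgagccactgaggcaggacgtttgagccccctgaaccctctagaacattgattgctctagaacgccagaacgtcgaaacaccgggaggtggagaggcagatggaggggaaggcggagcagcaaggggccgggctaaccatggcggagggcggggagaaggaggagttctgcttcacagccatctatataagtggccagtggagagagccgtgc
Ldha shows an E-box 145 bases and another 48 bases before its start, and Slc16a3 has its 2 cores within the last 27 bases before the start. A match describes letters only. No binding was measured.

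**Figure D5:**
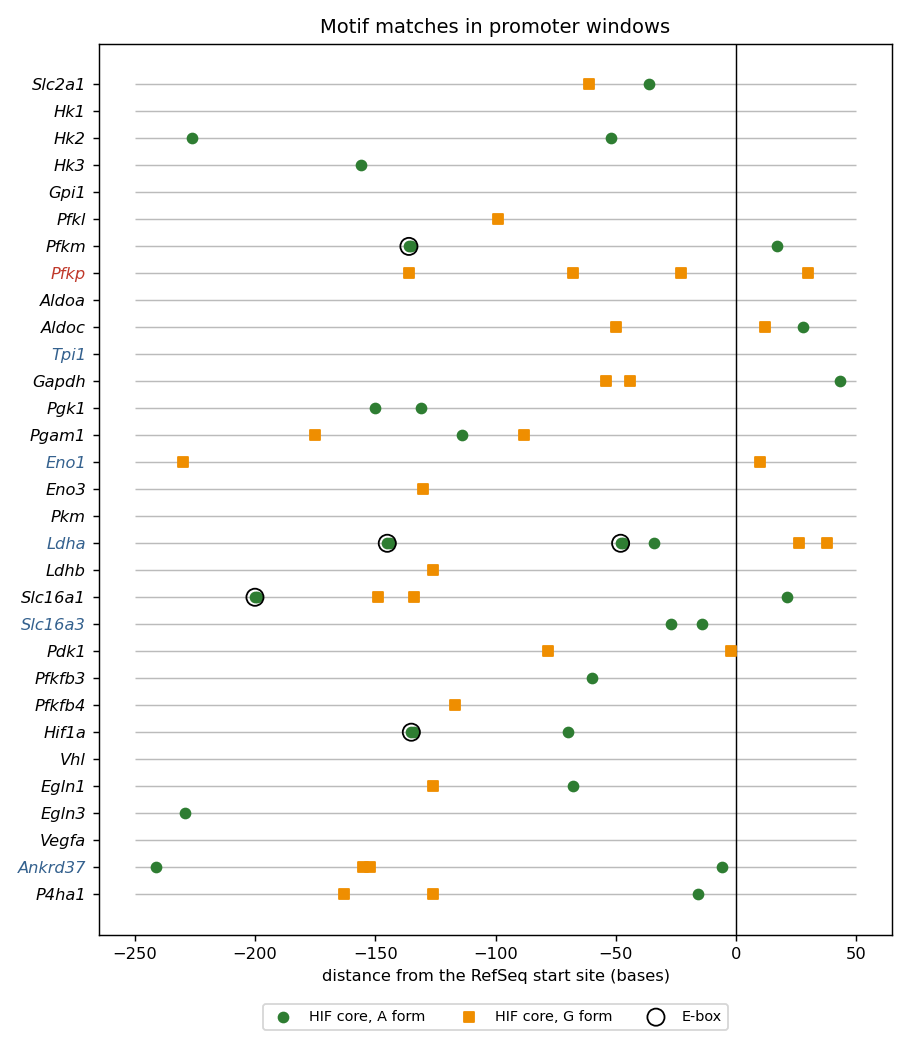
Position of HIF core matches (green circles, A form; orange squares, G form) and E-boxes (open circles) relative to the RefSeq start site (x axis, bases) in the promoter window of 31 members. Names in blue were called lower in KO and the name in red higher, and Ldha carries the most matches, at 7.

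Other genes of the same processes are read against the 7.94% of all genes that edgeR called. Of 21 tested genes for further glycolytic and side enzymes, 1 was lower and 0 higher (median log2 fold change -0.02). It was Pgm1, of the phosphoglucomutase family that links glucose to glycogen, at 74.4 CPM ± 3.56 in KO and 86.8 CPM ± 8.24 in WT (n = 6 each, log2 fold change -0.22, edgeR adjusted p = 0.0415), a call lost in 9 of the 12 fits without a single clone (all but 1B, 2D and 2E, adjusted p up to 0.0907). Of 13 genes for pyruvate entry into mitochondria, Pdp2, which encodes a phosphatase that activates pyruvate dehydrogenase, was lower at 28.0 CPM ± 2.73 in KO and 34.7 CPM ± 3.06 in WT (-0.31, edgeR adjusted p = 0.0290), and 0 were higher (median -0.06). That call was lost without 1B, 1C, 3G, 3H, 4J or 4L (adjusted p up to 0.0691). Of 17 further HIF pathway components and of 16 genes listed for the control of glycolytic genes, edgeR called 0. An unadjusted p under 0.05 was found for 5 and 4 of them, where 23.7% of all genes tested had one. DESeq2 called 2 of the HIF components, Siah2 and Os9, both higher, where it called 13.3% of all genes. In the control list it called 2, Rheb higher and Arrdc4 lower. Myc, a transcription factor that drives glycolytic genes, averaged 441 CPM ± 25.7 in KO and 455 CPM ± 60.2 in WT (-0.04, adjusted p = 0.782).

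Of 38 other HIF-inducible genes tested, 3 were lower and 2 higher, with a median log2 fold change of -0.06, against 7.94% of all genes called in either direction. DESeq2 called 4 higher and 5 lower, against 13.3% of all genes, adding Stc2 and Tfrc (higher) and Bnip3l and Narf (lower) to the 5 that edgeR called. Bnip3, a receptor that marks mitochondria for removal, was at 11.0, 12.4 and 13.8 CPM in KO (lowest, median, highest) and at 14.6, 17.6 and 23.7 CPM in WT, without overlap (-0.54, SE 0.12, edgeR adjusted p = 0.0158). Rcor2, a corepressor gene, averaged 12.9 CPM ± 0.502 in KO and 21.2 CPM ± 3.05 in WT, also without overlap (-0.71, SE 0.09, adjusted p = 0.000883). The cytokine gene Mif averaged 40.9 CPM ± 4.91 in KO and 52.6 CPM ± 6.30 in WT (-0.37, adjusted p = 0.0364). The call of Mif was lost in 9 of the 12 fits without a single clone (all but 1C, 2E and 3H, adjusted p up to 0.0826). Ddit4, an inhibitor of mTORC1 that is also induced by ATF4, was higher at 26.8 CPM ± 3.95 in KO and 18.3 CPM ± 2.89 in WT (0.55, adjusted p = 0.0191). The nuclear receptor gene Rora was higher but scarce, at 1.56 CPM ± 0.325 in KO and 0.220 CPM ± 0.164 in WT (2.81, SE 0.52, adjusted p = 0.00800).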

How the data were processed

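Total RNA of 12 single-cell clones was sequenced, 6 Taz knockout and 6 wild-type. The deposited values are raw counts of reads per Ensembl gene, 1 file per clone. The tools named in the submitters' processing notes are edgeR, HTSeq and STAR, without versions, and the build is mm9. Per the file names reads were counted without regard to strand. The annotation release is not given in the sources used here. The 5 closing lines of each file, which name no gene, were left out. They include reads aligned more than once (43.6% of records), reads outside genes (3.55%) and ambiguous reads (1.59%). Of 37583 identifiers, 32860 matched a symbol in GENCODE M21, from which chromosomes, exon lengths and transcripts were also taken. M21 belongs to a later build than mm9, and reads were not counted again on it. Levels per kilobase and exon overlaps rest on M21 exons, set beside counts made with an annotation that is not given. Promoter coordinates are those of RefSeq on GRCm38.p6.

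Genes passing filterByExpr were tested with edgeR 4.0.16 (R 4.3.3), TMM scaling and the quasi-likelihood F-test over all 12 clones, adjusted over 11819 genes. Clone numbers were compared in a model with 4 groups of 3 clones. SE is the absolute log2 fold change over the square root of F. CPM of filtered genes use the same scaling. The labels do not say that clones come from separate embryos, so p-values measure the spread between these clones. Where a clone had 0 counts, 3 counts were used as the upper limit, for counting error only. Transcripts were compared with BLAST 2.17.0. The test was tried on simulated counts with known changes. Alternatives were other scalings, filters, DESeq2 1.42.0, thinning, a 4-group model, sums by clone number and leaving out clones. The members and lists were chosen with earlier results of these data known. All members were named, with full statistics for called ones, and from other lists every called gene. Myc and the genes called by DESeq2 alone were added after their values were seen. A planned comparison of isozyme proteins was not made, as protein sequences were not used here.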

Additional observations from a re-analysis of the deposited data

Results flagged for a closer look

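A single clone far from the others of its genotype was looked for in 62 groups of 6 values, the 31 tested members in each genotype. Pgam1 in WT was the 1 case found. Clone 2D stood at 35.3 CPM, against 26.0 to 28.6 CPM in the other WT clones, and the gap to the next clone was 0.725 of the whole range, above the critical value of 0.625. Chance gives such a gap in about 1 of 20 groups. Clone 2D was also the WT library with neutrophil genes at 1538 CPM, and the part of these in the value was not tested. Without 2D, Pgam1 remained uncalled by edgeR.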

How the results depend on the processing

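Members called lower numbered 5 as reported, 2 with counts summed by clone number (and 0 higher, against 1), 3 with clones 2D and 3G both left out, a choice made after seeing the data, and 3 to 5 without single clones, with 3 without 3G or 3I. Over all genes, 472 were higher and 466 lower as reported, 801 and 830 with DESeq2, 271 and 280 without a filter on low counts, and 158 and 116 with counts summed by clone number. Without single clones 294 to 558 were higher and 272 to 535 lower. Signs turned in uncalled members only. Hk1 ran from -0.0041 (without 2D) to 0.15 without single clones and was -0.033 with 2D and 3G left out. Hif1a ran from -0.0022 (without 2E) to 0.11, and Egln1 from -0.019 (without 1A) to 0.13, turning also without 2D (-0.011) or 3I (-0.0081) and with 2D and 3G left out (-0.025). The cause was not tested. Sums by clone number leave 2 samples per genotype, and there Tpi1, Pfkp, Ankrd37, Slc16a3, Bnip3, Rora, Ddit4, Mif, Pgm1 and Pdp2 had adjusted p from 0.0556 to 0.193, while Ldha, Eno1 and Rcor2 kept their calls. Without 2D and 3G, Eno1, Slc16a3, Pgm1 and Mif lost theirs (adjusted p from 0.0571 to 0.136). Without a filter on low counts Slc16a3, Pgm1, Pdp2 and Mif did too. No paired analysis was possible because the labels share no replicate number between genotypes. Scaling moved the median of all genes by under 0.1 on the log2 scale. Low counts limit Ldhb (0 to 24 per clone), Aldoc (5 to 40), Ankrd37 (15 to 70) and Eno3 (24 to 129).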
